A study of Mus musculus with 10 samples.

Results

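The chromosome 9 odorant receptors are the mouse olfactory receptor genes numbered Olfr828 to Olfr986. They were taken by gene name from the deposited table of raw counts, with or without the suffix -ps that marks a pseudogene name. The table held 115 of them among 1125 odorant receptor (OR) genes and 24421 rows in all. The libraries were made from RNA of the main olfactory epithelium (MOE), the nasal tissue where olfactory sensory neurons (OSNs) sit. The mice were 14 days old (P14), and the labels give their strain as C57BL/6. The study's methods name C57BL/6J zygotes for the single enhancer deletions. For the double deletion, enhancer 1 was targeted in zygotes of mice that already carried the enhancer 2 deletion. The study's reporting summary gives mixed C57BL/6J and 129 backgrounds for its mouse lines. Wild-type (WT, n = 3) mice carried no deleted allele. Heterozygous (het, n = 3) mice carried 1 allele, and homozygous (homo, n = 4) mice carried both alleles, with TAAR enhancer 1 and TAAR enhancer 2 deleted. Both enhancers lie in the cluster of trace amine-associated receptor (Taar) genes on chromosome 10, so no group carried an engineered change on chromosome 9. The deletion came from 1 established double knockout line, and mice of both sexes were used. The paper describes the mice of the 3 genotypes as littermates, but the labels give no litter and no sex for single libraries.

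ORs are G protein-coupled receptors that detect odorants on the cilia of OSNs. A mature OSN of the OR type expresses 1 allele of 1 OR gene, while OSNs that express Taar genes do not express ORs with them. Enhancers bound by Lhx2, Ebf factors and the bridging protein Ldb1 come together at the chosen OR gene. A chosen receptor then sets off a feedback through the unfolded protein response that stabilises the choice. Chromosome 9 holds class II ORs, the larger and tetrapod-specific class, arranged in tandem arrays that grew by local gene duplication. In RNA from whole tissue, the level of an OR therefore depends both on how many OSNs chose it and on how much RNA each of them makes, and bulk libraries cannot tell these apart.

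The members lay in a pair of tandem arrays. Of the 115 genes, 113 had a position in the GENCODE M21 annotation of mm10, the build of the deposited counts, and all of these were on chromosome 9. Olfr899 and Olfr900 had no position and no count in any library, which allows up to 0.108 to 0.140 CPM per library (3 counts, counting error only). A gap of 17.4 Mb separated a proximal block of 31 genes (chr9:18814728-20303599, Olfr828 to Olfr873) from a distal block of 82 genes (chr9:37745106-40190134, Olfr874 to Olfr986). The blocks spanned 1.49 Mb and 2.45 Mb. In the annotation, 108 members were protein coding, 4 were polymorphic pseudogenes and 1 was an unprocessed pseudogene. A further 22 OR genes of the table lay on chromosome 9 outside the number range. They include Olfr151 and Olfr160, known as M71 and M72, which have served as model receptors in studies of OR gene choice.

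Members resembled their neighbours in coding sequence. In 112 members with an annotated coding sequence, its length ranged from 915 to 1012 bp around a median of 936 bp. Genes next to each other in order had a median nucleotide identity of 73.7%, against 57.5% over all 6216 pairs. The closest relative of a member was searched among the members only. Its median identity was 88.2%, which as the best match of each gene is high by choice. It lay in the same block for 111 of the 112 members and was the next gene in order for 48. Identity to the closest relative was over 90% for 44 members. The first 90 coding bases are shown for Olfr969, the highest member, and for 3 genes close to it in the distal block, with bases that differ from Olfr969 in capitals. They start at chr9:39795377, chr9:39819641, chr9:39873277 and chr9:39839436 of mm10, all on the plus strand, and come from the GENCODE transcripts.
Olfr969: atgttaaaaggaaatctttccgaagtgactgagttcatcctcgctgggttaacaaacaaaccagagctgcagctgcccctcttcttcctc
Olfr970: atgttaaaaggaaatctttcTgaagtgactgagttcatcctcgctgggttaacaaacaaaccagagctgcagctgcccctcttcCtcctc
Olfr972: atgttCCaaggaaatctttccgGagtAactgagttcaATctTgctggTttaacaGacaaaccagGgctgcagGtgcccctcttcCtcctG
Olfr971: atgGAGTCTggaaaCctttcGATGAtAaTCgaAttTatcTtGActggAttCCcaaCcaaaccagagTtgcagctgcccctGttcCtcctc
Over their whole coding sequences Olfr970, Olfr972 and Olfr971 were 92.4%, 87.9% and 75.9% identical to Olfr969. The second set shows Olfr955 and Olfr952, the members most alike, at 98.1% identity over the coding sequence. Both are on the minus strand, and the stretches lie at chr9:39470635-39470724 and chr9:39426980-39427069. Capitals mark bases of Olfr952 that differ from Olfr955.
Olfr955: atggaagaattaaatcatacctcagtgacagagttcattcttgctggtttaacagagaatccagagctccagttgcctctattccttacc
Olfr952: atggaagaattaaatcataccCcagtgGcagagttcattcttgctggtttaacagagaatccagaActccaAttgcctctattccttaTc
Such identity bears on counting, since a read that lies wholly within a shared stretch has no unique place. A median of 3.09% of the 50-base words in a member's transcripts also occurred, on either strand, in a transcript of another gene. Genes that overlap a member in the genome were included. Gm49385, for example, overlaps Olfr916 and held 205 of its 226 shared words. The share is therefore not limited to reads without a unique place. Of the 113 members with a transcript, 18 shared none and 19 shared more than 10%, with the highest share, 46.2%, in Olfr952. How the authors counted reads with several alignments is not given in the sources used here, so the members that share many words are uncertain as single genes.

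Libraries held 21423861 to 27712948 counts. The label check was clear: the olfactory Taar genes together had 850 to 915 counts in WT, 738 to 862 in het and 2 to 5 in homo libraries. Het replicate 2 stood apart in OR transcripts. Its summed OR level was 5454 CPM, counts scaled to a library total of 1000000, while the other 9 libraries ranged from 3883 to 4553 CPM. Its summed level of 10 markers of mature OSNs was 9636 CPM, inside the range of 9201 to 11147 CPM over all libraries. Results that rest on het replicate 2 are given below with and without it. Across genotypes the marker sums were 9832 to 10810 CPM in WT, 9636 to 11147 in het and 9201 to 10678 in homo, and none of the 10 markers was at 0. Immune markers (Ptprc, Cd68, Itgam) summed to 24.1 to 35.9 CPM. Among red blood cell markers the globin genes Hbb-bs and Hba-a1 were listed at 0 in every library, while Alas2 was not.

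Nearly all members were transcribed at a low level. A count was found in all 10 libraries for 107 of the 115 members, and more than 3 counts, the floor used here, in all 10 libraries for 99. No library exceeded the floor for 6 members. The number with at least 1 count was 108, 109 and 109 in the WT libraries, 107, 109 and 108 in het, and 109, 110, 109 and 110 in homo. With more than 3 counts it was 106, 108 and 108, then 106, 107 and 106, and 105, 106, 106 and 108. Genotypes differed by at most 1.5 members in the mean number with a count. In homo against WT the difference was 0.833 with 1 count as the limit and -1.08 above the floor, so it changed sign with the limit.

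Summed over the 115 members, the level was 246, 294 and 290 CPM in the WT libraries, 269, 367 and 280 CPM in het, and 253, 266, 286 and 258 CPM in homo. Het replicate 2 was the highest, and the other libraries of all genotypes overlapped. The means were 277 ± 27.0 CPM in WT (SD, n = 3), 305 ± 53.8 in het (n = 3) and 266 ± 14.4 in homo (n = 4). The het mean lay 28.5 CPM above the WT mean with het replicate 2, and the difference was -2.41 CPM without that library. Homo minus WT was -11.1 CPM, smaller than the SD of the WT libraries. No test was made of these totals.

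The share of all OR counts removes differences in total OR RNA. It was 6.33%, 6.48% and 6.99% in WT, 6.35%, 6.73% and 6.41% in het, and 6.14%, 6.55%, 6.27% and 6.34% in homo. Group means were 6.60 ± 0.349%, 6.50 ± 0.202% and 6.32 ± 0.171% (SD). The libraries of the 3 genotypes overlapped, and het replicate 2 fell within the WT range on this scale.

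**Figure D1:**
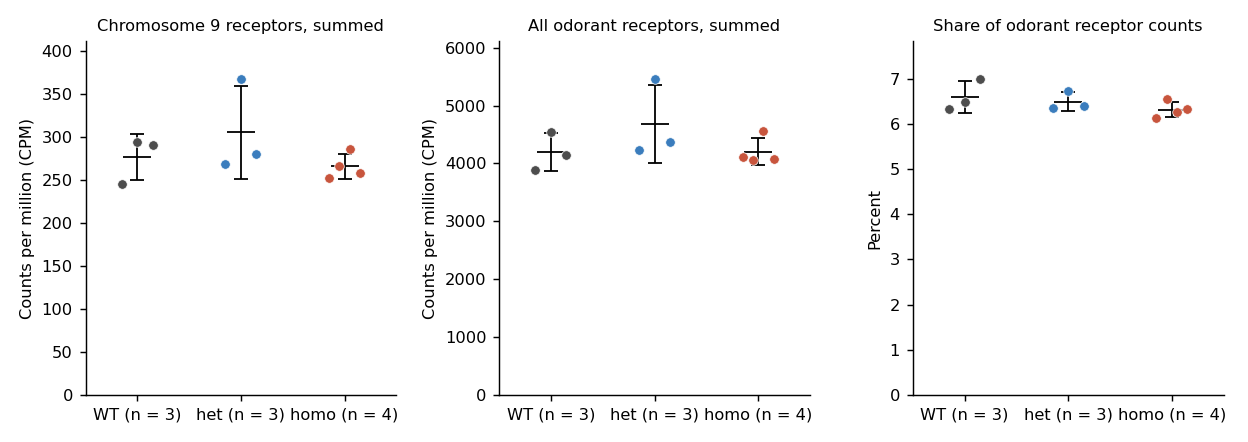
Summed level of the 115 chromosome 9 odorant receptors, summed level of all 1125 odorant receptors (both in CPM) and their ratio in percent, by genotype. Points are libraries, and bars give mean and SD; het replicate 2, at 367 CPM in the left panel, is highest in both sums, and in the ratio it lies among the other libraries.

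The members were 10.2% of the OR genes and held a mean of 6.46% of OR counts. The median level per kilobase of exon was 0.683 CPM per kb for the 113 members with a length and 0.907 CPM per kb for other ORs. Of the 100 ORs with the highest level per kilobase, 4 were members. Chromosome 2 and chromosome 7, the largest OR groups, had medians of 0.836 and 0.872 CPM per kb, and chromosome 14, the highest group of at least 20 genes, had 1.86. Among these groups the 25 ORs of chromosome 4 had the lowest median, at 0.410 CPM per kb. These differences between sets of genes are descriptions and were not tested.

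The proximal block, with 31 genes, held 24.4%, 24.3% and 26.1% of member counts in WT, 23.9%, 26.0% and 23.4% in het, and 23.1%, 24.1%, 23.8% and 24.5% in homo. The genotypes overlapped, and the mean was 24.4% over all libraries. The median level per kilobase was 0.571 CPM per kb in the proximal block and 0.706 in the distal block. The 24 members with the most counts made up 50% of all member counts.

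**Figure D2:**
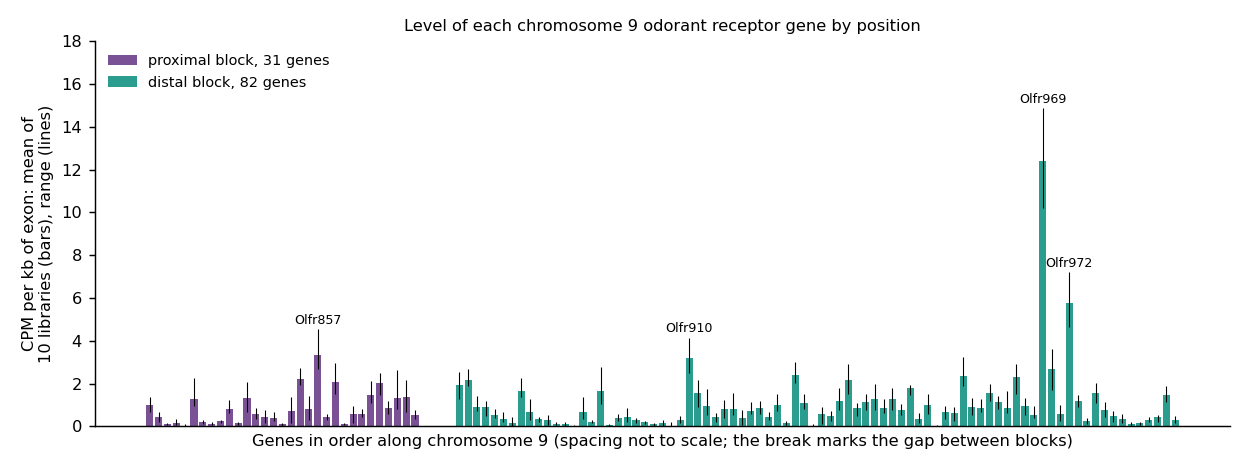
Mean CPM per kb of exon of the 113 positioned members in their order along chromosome 9, with the range over 10 libraries as lines. Olfr969, at a mean of 12.4 CPM per kb, stands above its neighbours in the distal block, and the proximal block is led by Olfr857 at 3.31 CPM per kb.

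One receptor led in every library. Olfr969 had 10.2, 13.5 and 12.9 CPM per kb of exon in WT, 11.6, 14.9 and 13.9 in het, and 11.3, 10.8, 13.8 and 11 in homo. It ranked 1 in all 10 libraries, held 6.47% to 7.91% of member counts and was number 6 among all positioned ORs by level per kilobase. The genotypes overlapped. Its log2 fold change in homo against WT was -0.05 (SE 0.13, 95% interval -0.33 to 0.23), and in het against WT it was 0.14 (SE 0.14, interval -0.16 to 0.44).

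Olfr972 followed with 5.87, 6.93 and 4.77 CPM per kb in WT, 5.43, 6.69 and 5.01 in het, and 7.2, 4.64, 6.27 and 5.06 in homo. It ranked 2 in every library, and its range met neither that of Olfr969 above nor that of Olfr857 below. Olfr972 shared 14.8% of its 50-base words with other genes and Olfr969 shared 6.46%. The homo against WT log2 fold change of Olfr972 was -0.02 (SE 0.18, 95% interval -0.39 to 0.36).

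Below these 2 receptors no neighbours in rank were separated. Olfr857 had a mean of 3.31 CPM per kb (range 2.66 to 4.54), and it was the highest of the proximal block. Olfr910 had 3.20 (2.48 to 4.15) and Olfr970 had 2.67 (1.72 to 3.6). Olfr923, Olfr957, Olfr965, Olfr855 and Olfr875 completed the first 10 with means from 2.41 to 2.18. Of the 112 pairs of neighbours in rank, 110 overlapped over the 10 libraries. The 10 receptors together held 23.0% to 27.6% of member counts in a library. Olfr857 shared 22.7% of its 50-base words with other genes, the most of them with Olfr58, an OR outside the number range.

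The ranking below the second place depended on the length used. By CPM with no length correction, or per kilobase of coding sequence, 5 of the same 10 receptors were in the first 10, Olfr969 and Olfr972 still at ranks 1 and 2. Olfr912, at a mean of 8.83 CPM, then took rank 3, and it had rank 19 per kilobase of exon with 5726 bp of annotated exon. Olfr943, with 7.2 CPM and 8314 bp, moved from rank 44 to rank 5, and Gm47100 overlaps it on the other strand. The annotation that the authors counted on is not given in the sources used here, so exon lengths are those of GENCODE M21. The order of the 104 members that passed the filter of the fit was alike between libraries, with Spearman correlations of 0.866 to 0.940 in 45 pairs of libraries that share the genes and their lengths.

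**Figure D3:**
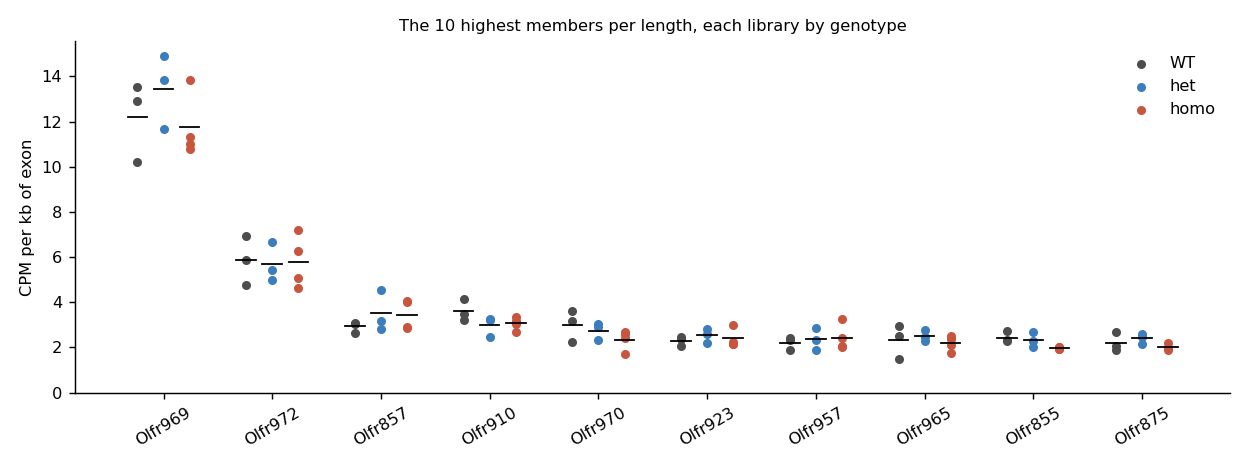
Level per kilobase of exon of the 10 highest members in each library, coloured by genotype, with group means as lines. Olfr969 lies between 10.2 and 14.9 CPM per kb and Olfr972 between 4.64 and 7.2, both apart from the other 8, whose ranges overlap.

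At the other end were the members lowest per kilobase of exon. By this measure the lowest of the 104 were Olfr853 (mean 0.0892 CPM per kb), Olfr906 (0.102), Olfr981 (0.108), Olfr837 (0.119) and Olfr890 (0.124). They were not all lowest in counts. With no length correction Olfr981 had a mean of 0.881 CPM, while Olfr907, tested and not among the 5, had 0.304 CPM. Olfr906 had 11, 14 and 11 counts in WT, 9, 13 and 13 in het, and 1, 7, 7 and 8 in homo. Every homo library was below every other library for this gene. Its log2 fold change in homo against WT was -0.98 with a wide 95% interval of -2.04 to 0.08.

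Among members with a pseudogene name, all 3 passed the filter. Olfr947-ps1, a polymorphic pseudogene in the annotation, had 4.45, 4.57 and 4.19 CPM in WT, 3.47, 4.54 and 4.39 in het, and 4.06, 3.54, 3.94 and 4.58 in homo. Its rank per kilobase was 15 of 113. Its mean was 1.77 CPM per kb, and those of Olfr856-ps1 and Olfr911-ps1 were 0.814 and 0.274 CPM per kb. The summed level of the 3 was 4.60 to 7.27 CPM per library.

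The 11 members that did not pass were Olfr830, Olfr834, Olfr862, Olfr883, Olfr891, Olfr898, Olfr899, Olfr900, Olfr908, Olfr926 and Olfr952. Olfr952, whose sequence is shown above, had 1 count over all libraries, while Olfr955 had a mean of 25.3 counts per library and 0.614 CPM per kb. Olfr926 had 3 counts, all in homo replicate 4, and Olfr924, 96.1% identical to it, had a mean of 1.11 CPM per kb. Olfr834 had 3 counts and Olfr832, 95.4% identical, had 0.171 CPM per kb. In each of these 3 pairs, picked for their low counts, the gene with few counts had a close relative with more counts next to it or 2 genes away. In all, 16 members were over 95% identical to their closest member. Others among them were Olfr869 with Olfr872, Olfr870 with Olfr871, Olfr874 with Olfr875, Olfr910 with Olfr912 and Olfr951 with Olfr954. All of these others passed the filter. Olfr891 had 2 counts with no shared 50-base word, so a low value also occurred without shared sequence. The part of read assignment in these low counts was not tested. The median level was 0.858 CPM per kb in the 18 members that shared no word, 0.484 in the 76 that shared up to 10% and 1.16 in the 19 that shared more, with no steady order.

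The question of the 3 comparisons was whether deletion of the Taar enhancers changed OR genes elsewhere in the genome. Genes were tested with the quasi-likelihood test of edgeR, with Benjamini-Hochberg adjustment across the 17197 genes that passed the filter. No member passed an adjusted p of 0.05 in homo against WT, in het against WT or in homo against het. The share called among all genes was 0.0698%, 0% and 0.0756%. DESeq2 and limma also called 0 members in each comparison. The median SE of a member's log2 fold change was 0.29, 0.30 and 0.29.

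At an unadjusted p under 0.05 the edgeR test gave 5 of 104 members in homo against WT (2 higher, 3 lower), against 2.41% of all genes (1.35% higher, 1.06% lower) and 28 of 939 other ORs. DESeq2 gave 5 and limma 6. Scaled to the OR total the split was again 2 higher and 3 lower, against 0.756% and 0.797% of all genes. In het against WT there were 4 (3 higher, 1 lower), against 1.92% of all genes (1.05% higher, 0.866% lower) and 44 of the other ORs. DESeq2 gave 4 and limma 3. Scaled to the OR total of each library, there were 0 higher and 4 lower, against 0.134% and 2.34% of all genes, and without het replicate 2 there were 0 higher and 2 lower. In homo against het there were 8 (1 higher, 7 lower), against 2.48% of all genes (1.54% higher, 0.948% lower) and 52 of the other ORs. DESeq2 gave 7 and limma 8. Scaled to the OR total there were 2 higher and 3 lower, against 3.02% and 0.244% of all genes, and without het replicate 2 there were 1 higher and 3 lower. The 3 comparisons share libraries, so these counts are not separate evidence.

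The medians of the members and of the other ORs had the same sign in each comparison with the TMM scaling of edgeR. In homo against WT the median log2 fold change was -0.08 over the 104 members, -0.02 over 939 other ORs and 0.00 over all genes, and 43 members were on the higher side. In het against WT the medians were 0.19 and 0.16, with 74 members on the higher side. In homo against het they were -0.22 and -0.16, with 24 on the higher side. Scaled to the OR total of each library, the member medians became -0.08, 0.02 and -0.06. Those of the other ORs became -0.03, -0.0065 and -0.01, so that their sign turned in het against WT. Without het replicate 2, the median was 0.02 in het against WT and -0.03 in homo against het.

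**Figure D4:**
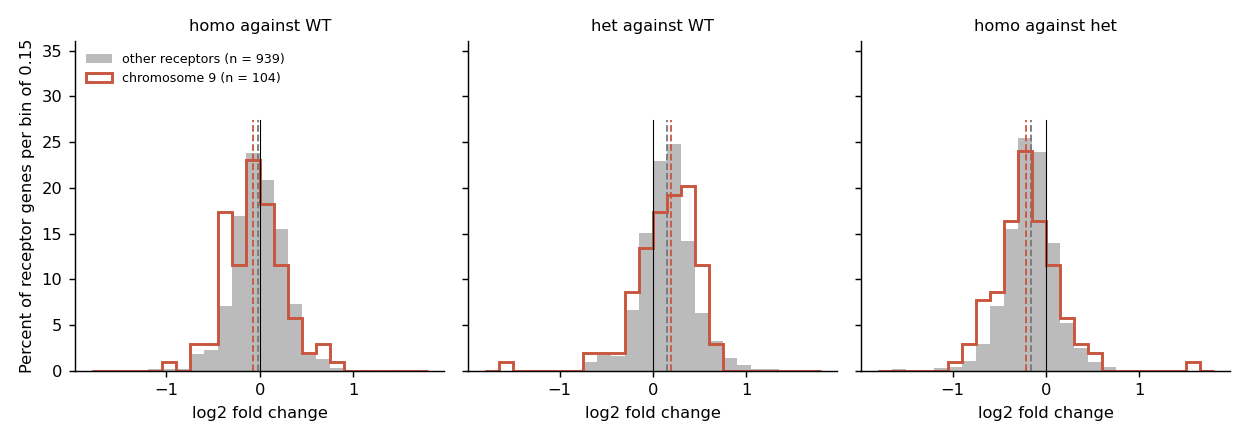
Log2 fold changes of the 104 members tested (red outline) and of the 939 other odorant receptors tested (grey), as percent of each set per bin, in the 3 comparisons. Dashed lines mark the medians, which lie at 0.19 and 0.16 in het against WT and at -0.22 and -0.16 in homo against het, and the sets overlap over nearly their whole range.

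Members whose libraries did not overlap between genotypes were counted among the 104 tested. In homo against WT, 1 lay higher in every homo than in every WT library and 7 lay lower. This held for 1.7% and 1.85% of all genes, and for 20 and 19 of the 939 other ORs. In het against WT, 7 lay higher and 1 lower, against 2.94% and 2.28% of all genes and 60 and 9 other ORs. In homo against het, 1 lay higher and 6 lower, against 2.04% and 1.89% of all genes and 6 and 41 other ORs. These differences were not tested. With counts scaled to the OR total, an alternative chosen after seeing the data, het against WT gave 1 higher and 9 lower, against 0.587% and 5.42%, and homo against het gave 5 higher and 5 lower, against 3.73% and 0.419%. Homo against WT then gave 1 higher and 10 lower, against 1.19% and 1.99%. The direction in het against WT thus turned with the scaling. In homo against het the lower members numbered 6 and then 5, and the higher ones rose from 1 to 5.

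The members with the smallest p in each comparison are given with their values, although none passed the adjusted threshold. In homo against WT the first was Olfr958, at 2.06, 2.23 and 3.29 CPM in WT, 3.25, 3.57 and 3.50 in het, and 2.85, 4.73, 5.08 and 4.0 in homo. Homo replicate 1 lay below WT replicate 3, and the others lay above all WT libraries. The log2 fold change was 0.73 (SE 0.23, 95% interval 0.24 to 1.23, edgeR unadjusted p = 0.00598, adjusted p = 1.00).

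Olfr914 had 2.20, 1.68 and 1.08 CPM in WT and 2.24, 3.14, 2.79 and 2.34 in homo, so that the groups did not overlap but nearly touched. Its log2 fold change was 0.66 (SE 0.27, edgeR unadjusted p = 0.0256, adjusted p = 1.00), and it was 0.43 without WT replicate 3. Olfr912 had 7.43, 12.5 and 10.1 CPM in WT, 8.12, 11.5 and 10.7 in het, and 7.70, 5.13, 8.38 and 6.78 in homo. Its log2 fold change was -0.51 (SE 0.20) in homo against WT and -0.52 (SE 0.20) in homo against het, and homo libraries overlapped both other groups. Without WT replicate 2 the value against WT was -0.32. Olfr910, its neighbour with 96.0% coding identity, had log2 fold changes of -0.23 and 0.04 in the same comparisons.

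Olfr871 had 1.46, 1.72 and 3.03 CPM in WT and 1.31, 0.929, 1.02 and 1.62 in homo. WT replicate 3 was the highest library, and the log2 fold change of -0.74 (SE 0.32) was -0.38 without that library. Olfr870, 97.5% identical and sharing 302 of the 50-base words of Olfr871, had -0.05 in the same comparison.

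In het against WT the smallest p belonged to Olfr874, at 3.4, 3.87 and 4.93 CPM in WT, 5.97, 6.69 and 5.0 in het, and 4.85, 4.11, 5.88 and 6.17 in homo. All het libraries were above all WT libraries, by a small margin. The log2 fold change was 0.54 (SE 0.20, edgeR unadjusted p = 0.0181, adjusted p = 1.00). Olfr918 had 2.13, 2.27 and 2.68 CPM in WT and 2.85, 4.42 and 2.93 in het. Olfr916 had 2.02, 2.27 and 3.03 CPM in WT and 3.03, 5.72 and 3.01 in het. Both were led by het replicate 2, and their log2 fold changes of 0.53 and 0.69 were 0.29 and 0.31 without it. Olfr916 overlaps Gm49385 on the same strand, so that its reads cannot be told apart from those of that gene there.

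Olfr853, the lowest tested member per kilobase, had 18, 10 and 5 counts in WT, 3, 6 and 1 in het, and 13, 12, 8 and 8 in homo. Het libraries were low and overlapped WT. The log2 fold change was -1.58 (SE 0.67, 95% interval -3.0 to -0.17) in het against WT, and 0.02 in homo against WT.

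In homo against het the smallest p belonged to Olfr872, at 2.98, 4.12 and 2.93 CPM in het, and 2.1, 1.28, 2.29 and 2.13 in homo. WT libraries had 2.80, 2.46 and 3.11 CPM, so every homo library was below every WT and every het library. The log2 fold change was -0.77 (SE 0.24, edgeR unadjusted p = 0.00480, adjusted p = 0.999) against het and -0.51 (SE 0.24) against WT. Olfr869, its closest relative at 95.4% coding identity, had -0.20 against het and -0.37 against WT, and they shared 226 of the 50-base words of Olfr872. Gm25425 overlaps Olfr872 on the other strand.

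Olfr878 had the same order of groups, at 2.5, 2.39 and 2.25 CPM in WT, 3.47, 2.65 and 2.56 in het, and 1.82, 1.72, 2.08 and 1.66 in homo. No homo library reached the WT or het libraries, and the gene shared no 50-base word with another gene. The log2 fold change was -0.66 (SE 0.22, edgeR unadjusted p = 0.00794, adjusted p = 0.999) against het and -0.38 against WT. Olfr835 had 2.85, 6.10 and 4.23 CPM in het and 2.66, 2.70, 3.30 and 2.60 in homo, where het replicate 2 was the highest and the groups overlapped. Its log2 fold change of -0.64 was -0.32 without that library.

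**Figure D5:**
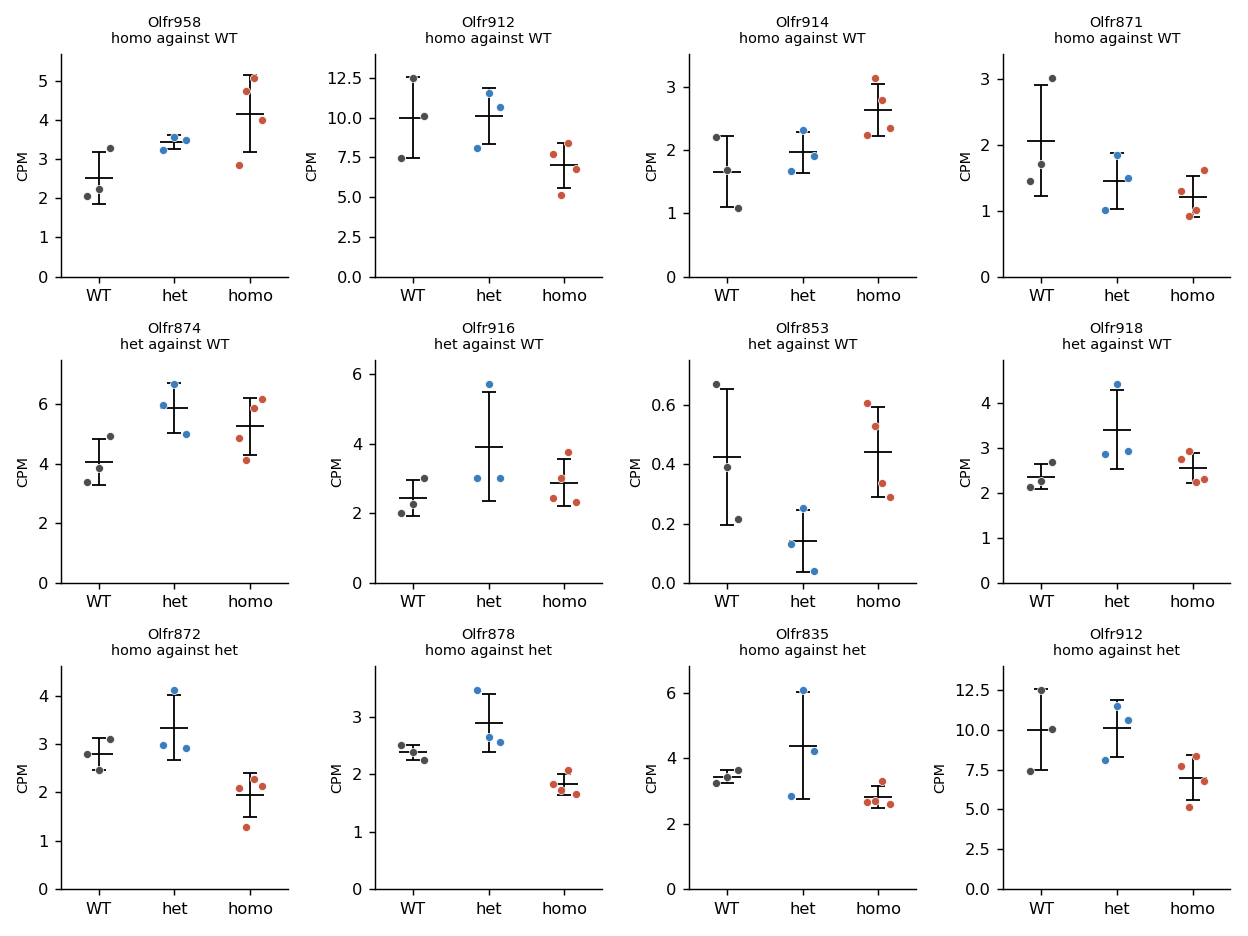
CPM in each library for the 4 members with the smallest p in each comparison, with mean and SD by genotype. Homo libraries lie below all others for Olfr872 and Olfr878, het replicate 2 is the highest library for Olfr916, Olfr918 and Olfr835, and none of these members passed the adjusted threshold.

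No gene of the shared machinery of OSNs was called either. The list of OR expression and signalling held 19 genes in 4 roles. They were the factors of receptor choice (Lhx2, Ldb1, Ebf1 to Ebf4), the feedback genes (Kdm1a, Eif2ak3, Atf5), the receptor transporters (Rtp1, Rtp2) and the signalling genes from the G protein Gnal to the chloride channel Ano2, with Omp. All 19 were tested, and 0 passed the adjusted threshold in any comparison by edgeR, DESeq2 or limma. By edgeR 0 had an unadjusted p under 0.05. Their log2 fold changes lay between -0.32 and 0.13 in homo against WT and between -0.24 and 0.15 in het against WT. The choice factors summed to 2262 to 2547 CPM in WT, 2332 to 2553 in het and 2276 to 2602 in homo.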

How the data were processed

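Whole MOE RNA of 10 mice (3 WT, 3 het, 4 homo) was sequenced after poly(A) selection with a directional kit. Per the labels and the study's methods, the authors trimmed reads with Trimmomatic 0.36, mapped them to mm10 with HISAT2 2.1.0 and deposited raw counts per gene from featureCounts (Subread 1.6.2). The annotation, strand setting and treatment of reads with several alignments are not given in the sources used here. A table of normalized signal that the authors deposited, with counts divided by 1 DESeq2 size factor per library, was used here for limma only.

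Members and gene lists were chosen with earlier results of these data known. Groups and replicate numbers came from the sample titles. Counts were filtered with filterByExpr (minimum count 10, minimum total 15), scaled by TMM and fitted with genotype alone to the 10 libraries in edgeR 4.0.16 (R 4.3.3, quasi-likelihood, robust, two-sided). The 17197 genes tested held 99.97% of the counts, and the common biological coefficient of variation was 13.9%. DESeq2 1.42.0 and limma 3.58.1 on log2 of the normalized signal plus 1 were alternatives. CPM used the library total. Positions, exon and coding lengths and transcripts came from GENCODE M21 (mm10), and coding sequences were aligned pairwise with Biopython. Members were split where the gap between neighbours was over 1 Mb. The test was checked on simulated counts.

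Named members were the 10 highest per kb, the 4 with the smallest p in each comparison, any with an adjusted p under 0.05, the 5 lowest tested, the tested -ps members, and up to 5 with an isolated homo library. Other members were named for their relation to these, after their values were seen. Same-numbered WT and het libraries deviated together (correlations 0.326, 0.285 and 0.235 over all genes tested). Homo libraries showed no steady pairing with either group, from -0.148 with het for replicate 1 to 0.160 with het for replicate 2. The paper calls the mice littermates, and the labels do not say which libraries shared a litter or came from separate litters. The main fit did not pair libraries, so p-values measure the spread between these libraries. Replicates within a group differed by more than sampling noise (14.2 to 48.4 for chi-square over its degrees of freedom).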

Additional observations from a re-analysis of the deposited data

Results flagged for a closer look

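A gap test asked, within the 4 homo libraries, whether the highest or lowest library lay apart, as the gap to its nearest neighbour over the whole range against Dixon's 95% critical value for 4 values. It passed for 10 of the 104 members tested, where chance alone passes about 1 in 20. Among all 17197 genes tested 5.42% passed, and among the other ORs 43 of 939 did; the difference was not tested. Of the isolated values, 3 were in homo replicate 1, 3 in homo replicate 2 and 4 in homo replicate 3. The most isolated were Olfr906 (0.921), low in homo replicate 1 at 0.0467 CPM against 0.289 to 0.310 in the other homo libraries, and Olfr976 (0.910), high in homo replicate 3 at 6.82 CPM against 4.86 to 5.04. Olfr923 (0.894), Olfr835 (0.859) and the leading member Olfr969 (0.832) were also high in homo replicate 3, at 8.76, 3.30 and 22.1 CPM. Olfr869 (0.892) was low in homo replicate 2 at 2.65 CPM, and Olfr944 (0.892) was high there at 2.43 CPM. The OR total passed as well (0.883), with 4553 CPM in homo replicate 3 against 4059 to 4117 in the others. The part of the OR total of homo replicate 3 in the 4 members high there was not tested.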

How the results depend on the processing

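The count of 0 members called held in all 3 comparisons under every alternative tried, which were 2 other scalings, scaling to the OR total, 2 other filters, DESeq2, limma, a replicate block, fits on 2 genotypes and leaving out each library. The smallest adjusted p of a member over all of them was 0.743, in het against WT with a replicate block in WT and het alone, where 5 members had an unadjusted p under 0.05. With the replicate block over all genotypes, that number was 6 in homo against WT and 4 in het against WT. It was 5 in homo against het, and 0 members were called. The direction of all 12 smallest-p results held under all alternatives in which they were tested. The 12 were picked by p from the same libraries that the alternatives refit, so this is no separate support for them. Leaving out 1 library, the unadjusted counts ranged from 2 to 6 in homo against WT (2 without homo replicate 2, 3 without WT replicate 2), from 0 to 8 in het against WT (0 without WT replicate 1, 2 without het replicate 2 or homo replicate 1, 7 without WT replicate 3 or het replicate 1, 8 without het replicate 3) and from 4 to 11 in homo against het (4 without het replicate 2, 5 without homo replicate 4). Fits on the 2 genotypes alone gave 2 in het against WT, and scaling to the OR total gave 5 in homo against het.

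The member median of log2 fold change ranged from -0.14 to -0.01 in homo against WT, from 0.021 to 0.23 in het against WT and from -0.32 to -0.027 in homo against het when 1 library was left out. Scaled to the OR total, it was 0.017 in het against WT, and 53% of members were higher instead of 71%. In homo against het 40% were higher instead of 23%. Under this scaling the median of all genes was -0.15 and 0.13 in these comparisons. The differences in the member total ranged from -26.6 to -2.38 CPM, from -2.41 to 46.7 and from -57.7 to -8.66 over left-out libraries. The sign of het minus WT turned without het replicate 2. The share of OR counts in het minus WT ranged from -0.24 to 0.09 percentage points and turned without WT replicate 3. It stayed negative in homo minus WT (-0.42 to -0.08) and in homo minus het (-0.25 to -0.06). The pooled SD of the share between replicates was 0.24 percentage points. Above 3 counts the number of members differed by -1.08 in homo minus WT and by -0.0833 in homo minus het, where 1 count gave 0.833 and 1.5. Of the 10 highest members, 5 remained by CPM with no length correction and 5 per kb of coding length, an alternative chosen after seeing the data. Between 9 and 10 remained when 1 library was left out. A tested member had a median of 52.8 counts per library, which limits what single members can show.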
